A study of Mus musculus with 20 samples.

Results

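Zcchc8 KO clones 2 and 3 are separate Cas9-edited clones of SIMS cells, a mouse salivary gland line, and share the knockout genotype on their labels. The comparison between them took the columns of the 4 libraries labelled clone 2 and the 4 labelled clone 3, which are 8 of the 20 libraries in the series. The series asked how loss of ZCCHC8 alters transcription of regulatory features, and a comparison of 2 clones of 1 genotype shows how far knockout lines differ from each other. The other groups served as reference levels: unedited wild type (3 of its 4 libraries are in the tables of the main test), Btbd7 KO, a knockout used as negative control, and Zcchc8 KO clone 1, with 4 libraries each. All cells were grown in DMEM with 10% fetal bovine serum, with no further treatment named. Each knockout line is represented by a single clone, the labels do not say that its 4 libraries came from separate cultures, and the edited alleles were not analysed here. The p-values therefore measure the spread between libraries of a clone, which may be technical, and a clonal difference cannot be told apart from a difference between the lines' editing outcomes.

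ZCCHC8 is a zinc-finger protein that holds together the nuclear exosome targeting (NEXT) complex with the RNA-binding protein RBM7 and the helicase MTREX. NEXT hands short-lived nuclear RNAs to the RNA exosome for decay. Promoter upstream transcripts (PROMPTs), made in the opposite direction from active promoters, are among its known substrates. A cell clone descends from 1 cell, so its expression also carries whatever was particular to that founder. Total RNA was counted per gene and per PROMPT region, the latter named by the gene whose promoter it lies at.

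The libraries held 7053304 to 16994115 gene counts in clone 2 and 7578027 to 14593557 in clone 3, with 1591591 to 3966608 and 1784750 to 3369859 counts in PROMPT regions. Levels are given as CPM, counts scaled to an equal TMM library size, and log2 fold changes as clone 2 minus clone 3. The cells carried epithelial markers: Epcam, an epithelial adhesion protein, was at a mean of 361 CPM in clone 2 and 378 in clone 3. Of 17 acinar markers of the gland, 11 had no count in clone 2 and 10 in clone 3, among them the secretory products Bpifa2, Pip, Smgc and Muc19. Amy1, a salivary amylase, had 3 and 15 counts, whereas the water channel Aqp5 (7408 and 5181 counts), the potassium channel Kcnn4 (4719 and 4237) and the cotransporter Slc12a2 (5817 and 2900) were abundant. Of 17 immune markers, 10 had no count in clone 2 and 12 in clone 3. Of 10 endothelial markers, 3 and 5 had none, and the summed level of that list stayed between 0.347 and 1.25 CPM in clone 2 and between 0.0707 and 1.53 CPM in clone 3.

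The edited gene itself differed between the clones. Zcchc8 (ENSMUSG00000029427.11, protein-coding, chromosome 5, 123698294 to 123721100, GRCm38) was at 25.3, 22, 24 and 22.7 CPM in the libraries of clone 2. It was at 55.9, 61.0, 51.1 and 50 CPM in those of clone 3. The groups did not overlap, and clone 3 lay close to wild type (mean 65.2 CPM), whereas clone 2 held less than either. The log2 difference was -1.21 (adjusted p = 4.96e-15 by edgeR, standard error 0.08, below SE). RNA levels do not show whether protein is made, because an edit can spare the transcript.

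The partners of ZCCHC8 were close to equal in RNA. Rbm7 was at 54.4 ± 2.50 CPM (SD, n = 4) in clone 2 and 56.4 ± 5.98 (SD, n = 4) in clone 3, a log2 fold change of -0.06 that did not pass the test (edgeR adjusted p = 0.658). Mtrex, at 138 ± 6.09 CPM (SD, n = 4) against 120 ± 1.15 (SD, n = 4), was higher in clone 2 by 0.20 (SE 0.05, edgeR adjusted p = 0.00321), and lies in a stretch of chromosome 13 where 208 of 574 genes were higher and 18 lower in clone 2. Among NEXT, PAXT and exosome components 27 were tested, of which 1 was higher (3.70%) and 4 were lower (14.8%) in clone 2. The share called was 18.5%, below the 24.7% of all genes, so the count is no result about the list. Beside Zcchc8 the lower ones were Exosc2 and Exosc10, an exosome core subunit and its nuclease, and Zfc3h1, the scaffold of the PAXT pathway for polyadenylated RNA. Their log2 fold changes were -0.35, -0.17 and -0.16 (edgeR adjusted p = 0.0191, 0.0365 and 0.0323). Zfc3h1 lost its call in 6 alternatives and Exosc2 in 2, and the number of lower members ranged from 1 to 5 over the alternatives. Btbd7, the gene edited in the control line, did not differ (0.07, edgeR adjusted p = 0.418).

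Across the transcriptome the clones differed widely. Of 15542 tested genes, 2145 (13.8%) were higher and 1694 (10.9%) lower in clone 2 at an adjusted p under 0.05 in edgeR, so that 24.7% of genes were called. For 25.6% of tested genes the 4 and 4 libraries did not overlap. Most differences were small: 644 genes (4.14%) also passed an absolute log2 fold change of 1, with 422 higher and 222 lower. Protein-coding genes were called most often, at 30.9% of 11564. The share was 12.1% of 473 lincRNAs, 5.69% of 1055 TEC transcripts, a GENCODE class that awaits experimental evidence, 4.39% of 911 processed pseudogenes and 3.15% of 127 snoRNAs. The part of depth in these shares was not tested. In the gene table that also holds wild-type replicate 1, the same test called 1535 genes higher and 1165 lower.

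The largest reductions in clone 2 included both partners of a collagen pair. Col4a3 and Col4a4 encode chains of type IV collagen, the network-forming collagen of basement membranes. Col4a3 (ENSMUSG00000079465.8, chromosome 1, 82586921 to 82722059, plus strand) was at 1.94, 2.01, 4.43 and 2.01 CPM in clone 2 and at 106, 113, 93.2 and 109 CPM in clone 3. Col4a4 (ENSMUSG00000067158.9, chromosome 1, 82448423 to 82586849, minus strand) was at 6.53, 5.46, 4.43 and 6.17 CPM against 82.0, 78.7, 77.2 and 84.3 CPM. Every library of clone 2 lay far below every library of clone 3 for both genes, and wild type (means of 57.3 and 54.6 CPM) and Btbd7 KO (136 and 76.7 CPM) were on the side of clone 3. The log2 fold changes were -5.24 (SE 0.13, edgeR adjusted p = 2.15e-29) and -3.87 (SE 0.10, edgeR adjusted p = 4.07e-29). The pair is transcribed in opposite directions from starts 72 bases apart, and the 71 bases between them are shown because both genes with the joint reduction begin there. The sequence, from RefSeq (GRCm38.p6), is chr1:82586850-82586920, printed on the minus strand toward Col4a4, with CG dinucleotides in capitals.
Between Col4a3 and Col4a4: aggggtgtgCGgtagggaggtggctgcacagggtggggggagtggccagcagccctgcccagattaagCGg

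Several other genes were nearly silent in clone 2 and present in clone 3. Crb1, a polarity protein of epithelial apical membranes, had 1, 0, 0 and 4 counts in the libraries of clone 2. In clone 3 it had 319, 181, 199 and 308 counts, at 22.6, 22.9, 25.4 and 20.8 CPM. Crb1 was also at or near 0 in wild type (0 counts in each library) and clone 1 (mean 0.0340 CPM), so clone 3 was the one that stood apart. Its fitted log2 fold change of -7.76 depends on the prior count and is no bound (edgeR adjusted p = 2.22e-17). Rps6ka6, a ribosomal S6 kinase on the X chromosome, was likewise highest in clone 3, at 20.2, 20.8, 24.2 and 19.6 CPM against 1.11, 0.861, 0.633 and 0.277 CPM in clone 2 and a mean of 3.84 CPM in wild type. Xlr, an X-linked gene best known from lymphoid and germ cells, was at 12.1 ± 2.67 CPM (SD, n = 4) in clone 3 and 0.227 ± 0.105 (SD, n = 4) in clone 2.

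Pcdh19, an X-linked protocadherin of cell adhesion, was at 5.41, 4.59, 7.02 and 6.38 CPM in clone 2 and at 94.7, 79.2, 87.3 and 95.7 CPM in clone 3. Here clone 2 was near wild type (5.18 CPM), while Btbd7 KO (59.2 CPM) and clone 1 (24.4 CPM) lay between. Fhl1, a LIM-domain protein, was lower in clone 2 by 3.33 on the log2 scale (SE 0.26, edgeR adjusted p = 3.04e-13). The other genes named by the rule were Tmem238l (-3.07), Plekhh2 (-2.86) and Klhl1 (-2.75). Klhl1 was at 22.6 CPM in clone 3, against 3.93 CPM in wild type and 3.28 CPM in clone 2.

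Among the 10 named genes higher in clone 2, Hhip had the most counts. It encodes a membrane protein that binds and sequesters hedgehog ligands and is itself a target of hedgehog signalling. Hhip was at 246, 244, 213 and 232 CPM in clone 2 and at 22.2, 23.6, 32.5 and 28.9 CPM in clone 3. Wild type (66.9 CPM) and Btbd7 KO (83.1 CPM) lay between the clones, and clone 1 (30.7 CPM) was near clone 3. This is a log2 difference of 3.13 (edgeR adjusted p = 3.74e-27, SE 0.09). Aldh3a1, an aldehyde dehydrogenase of epithelia, was at 81.8, 75.9, 68.6 and 62.4 CPM in clone 2 and at 8.63, 6.44, 10.2 and 7.84 CPM in clone 3, a log2 fold change of 3.12.

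Kcnq1, a voltage-gated potassium channel of secretory epithelia, was at 12.9, 15.6, 15.7 and 16.2 CPM in clone 2 and at 0.990, 0.631, 1.15 and 0.406 CPM in clone 3. Both clones had left the wild-type mean of 4.58 CPM, in opposite directions. Prex1, an exchange factor for the GTPase Rac, was at 25 ± 2.89 CPM (SD, n = 4) against 1.23 ± 0.650 (SD, n = 4), with 3.97 CPM in wild type. Gpnmb, a transmembrane glycoprotein, and Rab7b, a GTPase of endosomal traffic, were near 1 CPM in wild type, at 1.19 and 0.916 CPM, and reached 11 and 10.6 CPM in clone 2. By contrast Arhgap8, H2afy2 and Sema5a were at wild-type levels or near them in clone 2 (9.80, 7.24 and 8.65 CPM against 14.3, 6.67 and 6.30 CPM in wild type) and low in clone 3 (0.686, 0.618 and 0.787 CPM). These encode a GTPase-activating protein, a macroH2A histone variant and a semaphorin. Olfm1, a secreted olfactomedin, was at 11.9 CPM in clone 2 and 1.13 CPM in clone 3.

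**Figure D1:**
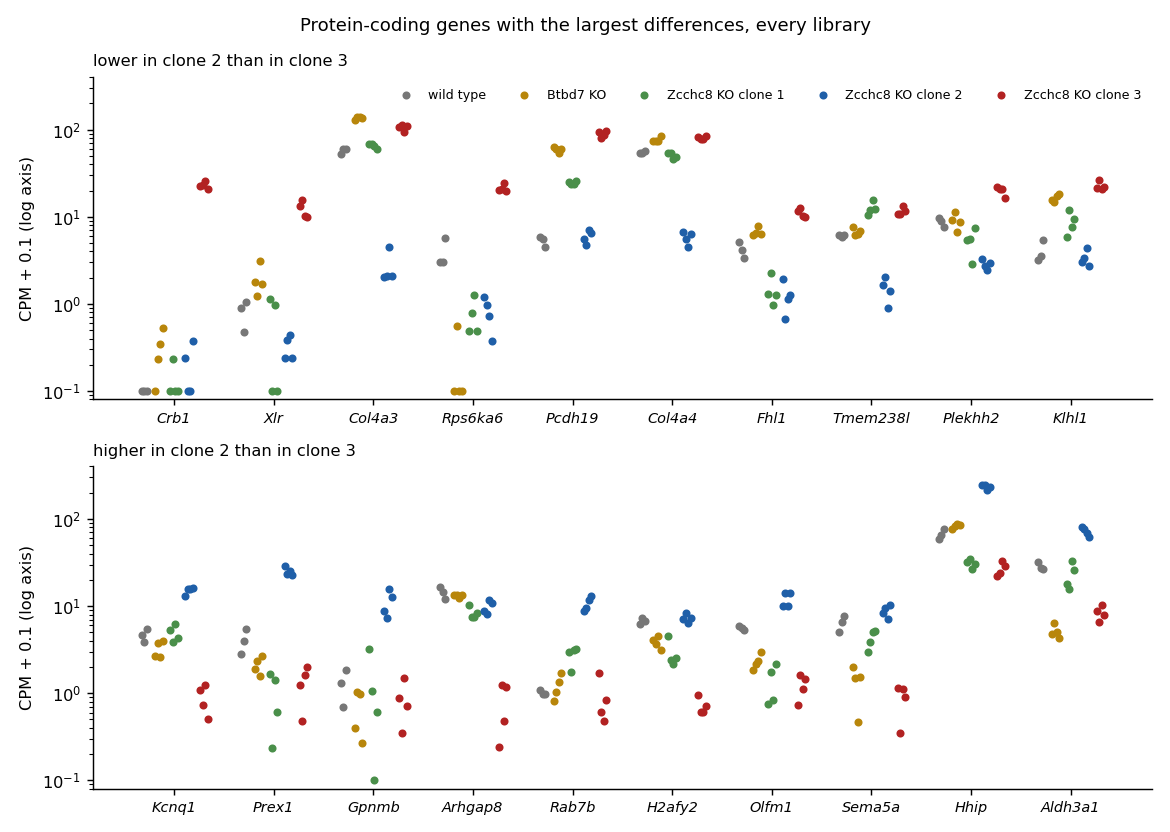
CPM of each library (log axis, 0.1 added) for the 10 protein-coding genes with the lowest and the 10 with the largest log2 fold change between clones 2 and 3, with wild type, Btbd7 KO and clone 1 for reference. For Crb1 and Rps6ka6 clone 3 stands apart from all other lines, and for Col4a3 and Col4a4 clone 2 does.

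The called genes were placed against the 7 control libraries (3 wild type, 4 Btbd7 KO), with the same controls for both clones. For 1096 of the 3839 called genes all libraries of clone 2 lay outside the control range while those of clone 3 did not. For 891 it was clone 3 that lay outside, and for 1412 neither clone did. Both clones lay outside on the same side for 314 genes and on opposite sides for 126. Called genes with only 1 clone outside were thus found for each of the clones. The control range includes Btbd7 KO, itself an edited line, so which clone lay outside can depend on that line. Clone 1, which took no part in the contrast, had a mean nearer to clone 3 for 2391 of the called genes and nearer to clone 2 for 1448. Genes that were not called were not placed in this way, so these counts have no background share beside them.

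Transcripts of other biotypes gave smaller differences. The lincRNA Gm44275 was at 32.3, 32.2, 28.8 and 31.8 CPM in clone 2 and at 6.72, 5.56, 6.14 and 5.41 CPM in clone 3, a log2 fold change of 2.39. Peg13, an imprinted non-coding RNA on chromosome 15, was at 7.47 ± 0.755 CPM (SD, n = 4) against 1.88 ± 0.533 (SD, n = 4), with 8.71 CPM in wild type. The lower ones were the lincRNA AC124518.1 (-1.70), the antisense RNA Gm16140 (-1.44), the pseudogene Gm18066 (-1.99) and the TEC transcript C130075A20Rik (-1.40). The counting strand is not given in the sources used here, so reads of Gm16140 and of the gene opposite to it cannot be told apart.

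The differences followed chromosomes in part. Genes with a mean of at least 50 counts (10764) were put in genome order into 270 bins of about 40 genes, and the median log2 fold change of each bin was taken. Runs of at least 2 neighbouring bins with a median beyond 0.15 in 1 direction were called blocks, by thresholds chosen after the data were seen. There were 8 such blocks. Of 2870 tested genes inside them 1023 were higher and 264 lower in clone 2 (44.8% called), and of 12672 outside 1122 were higher and 1430 lower (20.1%). Of the 1287 called genes inside, 93.2% differed in the direction of their block's median. The choice of the blocks, made on this same contrast, favours this share and the higher share called inside.

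The strongest was the distal part of chromosome 18. Between 53176316 and 90579777 on chromosome 18, 99 of 153 genes were lower in clone 2 and 6 higher, with a median of -0.51. The medians of the single libraries relative to wild type were -0.59 to -0.53 in clone 2 and -0.13 to -0.08 in clone 3. Genes there include Nars, the asparaginyl-tRNA synthetase (-1.10), Smad7, an inhibitor of TGF-beta signalling (-1.37), and the ribosomal protein genes Rps14 (-0.60) and Rpl17 (-0.54). Slc12a2, the salt cotransporter of secretory cells, lies in the same block and went the other way (0.78, edgeR adjusted p = 6.57e-12).

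The largest number of calls came from chromosome 11. From 78512193 to 121701544, 314 of 548 genes were higher in clone 2 and 9 lower, with a median of 0.35. Clone 2 was at 0.22 to 0.27 relative to wild type and clone 3 at -0.15 to -0.10. Btbd7 KO, at a median of 0.22, was as high as clone 2, so in this block clone 2 shared its level with the control line. Krt14, Krt19, Top2a, Jup, Erbb2 and Itgb4 lie in it.

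On chromosomes 13 and 15 clone 3 was the low one. The block of chromosome 13 (23553262 to 119765187) had 208 of 574 genes higher and 18 lower in clone 2, with a median of 0.24. Clone 3 was at -0.21 to -0.17 relative to wild type and clone 2 at 0.05 to 0.08, while clone 1 was at a median of -0.27. That of chromosome 15 (3317760 to 103344286, nearly the whole chromosome) had 253 of 595 higher and 17 lower, with clone 3 at -0.33 to -0.28 and clone 2 at -0.06 to -0.02. Chromosome 19 was higher in clone 2 over its whole length (median 0.17, with 160 of 511 genes higher and 16 lower). Relative to wild type, clone 2 was there at 0.09 to 0.13, clone 3 at -0.11 to -0.07 and Btbd7 KO at 0.15 to 0.17. The end of the X chromosome (136732942 to 169685199) had 62 of 108 genes higher and 1 lower, with a median of 0.34.

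The remaining blocks were lower in clone 2. On chromosome 1 from 177442351 to 195097382 the median was -0.26, with 45 of 133 genes lower and 9 higher, and clone 3 was the one away from wild type, at 0.16 to 0.18. On chromosome 3 from 95253674 to 119743208 it was -0.22, with 59 of 248 lower and 11 higher. Relative to wild type, the medians there were -0.24 in clone 2, -0.08 in clone 3, -0.17 in Btbd7 KO and -0.27 in clone 1. Libraries of clones 2 and 3 did not overlap in their medians for any of the 8 blocks, a separation that the choice of the blocks on this contrast favours. PROMPT regions, which are other features counted in the same libraries, had block medians of the same sign in all 8, from -0.55 on chromosome 18 to 0.33 on chromosome 11. The signs were also the same over regions with no annotated gene within 5 kb upstream, from -0.47 to 0.36. DNA copy number was not analysed here, and its part in these blocks was not tested.

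**Figure D2:**
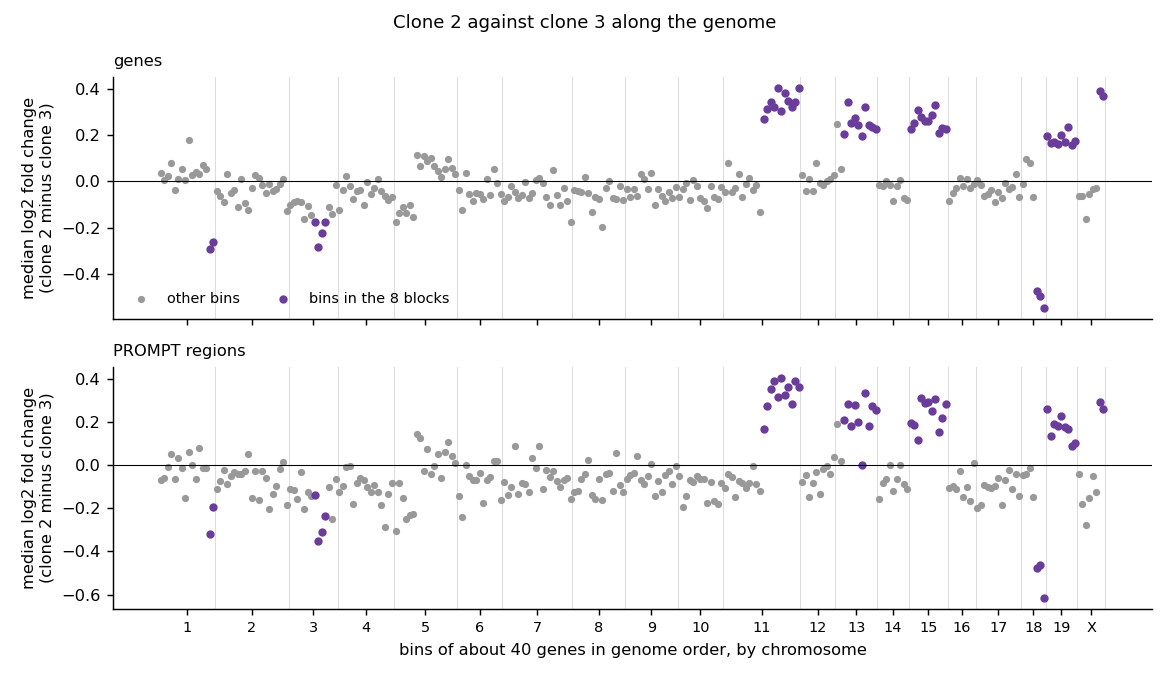
Median log2 fold change (clone 2 minus clone 3) of 270 bins in genome order, for genes above and for the PROMPT regions in the same bins below, with the bins of the 8 blocks in purple. Bins of the blocks on chromosomes 11, 13, 15, 19 and X lie above 0 and those of distal chromosome 18 lie near -0.51, and the medians of PROMPT regions over these blocks have the same signs.

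**Figure D3:**
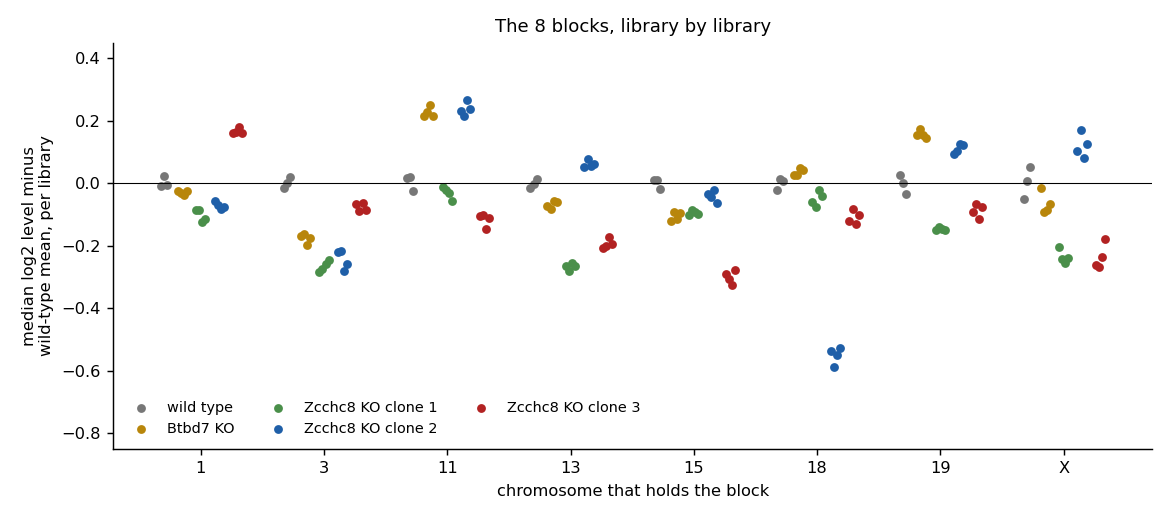
Median log2 level per library minus the wild-type mean, over genes of each block, with 1 point a library. Clone 2 stands apart on chromosome 18 (-0.59 to -0.53), and clone 3 on chromosomes 1 and 15.

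Of the 644 genes with an absolute log2 fold change over 1, 152 (23.6%) lie inside the blocks, which hold 18.5% of all tested genes. Col4a3, Col4a4, Crb1, Hhip, Kcnq1 and Prex1 are all outside. Arhgap8 and Sema5a are in the block of chromosome 15, on the side of its median.

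Genes of the integrated stress response were lower in clone 2. This program, run by the transcription factor ATF4, raises amino acid synthesis, uptake and tRNA charging under stress. Of 27 tested members 17 were lower and 3 higher, with a median log2 fold change of -0.48, beside 10.9% lower, 13.8% higher and a median of -0.003 over all genes. Outside the blocks it was 11 lower and 3 higher of 20, with a median of -0.50. Atf4 itself, on chromosome 15, was at 160, 175, 205 and 209 CPM in clone 2 and at 249, 314, 252 and 229 CPM in clone 3, which differs by -0.47 on the log2 scale (edgeR adjusted p = 0.000151, SE 0.09). It ran against its block, whose median was 0.26.

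The members that differed cover several steps of amino acid supply. Asns, which makes asparagine, was at 83.2, 76.4, 76.7 and 66.7 CPM against 137, 164, 135 and 116 CPM (-0.86). Slc7a5, a transporter of large neutral amino acids, was at 106, 103, 103 and 103 CPM against 218, 217, 178 and 175 CPM (-0.93). Neither set of libraries overlapped the other. The serine and one-carbon enzymes Shmt2 (-0.64), Mthfd2 (-0.94), Phgdh (-0.48) and Psat1 (-0.28) and the tRNA synthetases Aars (-0.54), Cars (-0.51), Gars (-0.48) and Eprs (-0.46) were also lower. Atf5, a factor induced by ATF4, was at 2.22, 5.17, 7.59 and 4.65 CPM against 14.3, 19.4, 13.9 and 12.2 CPM (-1.51).

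The members higher in clone 2 were Cebpb (0.62), a partner factor of ATF4, Slc7a11 (0.54), the cystine transporter, and Ddit4 (0.35), an inhibitor of mTORC1. Ddit3 (0.14), the pro-apoptotic factor CHOP, and Trib3 (-0.03) did not pass the test. Relative to wild type, the median over the list was -0.75 to -0.65 in the libraries of clone 2, -0.38 to 0.01 in those of clone 3 and -0.63 to -0.40 in clone 1. Replicate 2 of clone 3 was the highest of its group, and without it 16 members were lower and 4 higher.

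Several antioxidant and glutathione genes were higher in clone 2 than in clone 3. The list of NRF2 targets and glutathione genes, which detoxify electrophiles and peroxides, had 15 of 33 members higher (45.5%) and 2 lower (6.06%) in clone 2. This is beside 13.8% and 10.9% of all genes. The median of the list was 0.18 (12 higher and 2 lower of 27 outside the blocks). Both clones were below the wild-type mean, with library medians of -0.26 to -0.08 in clone 2 and -0.36 to -0.25 in clone 3. Replicate 1 of clone 2 overlapped clone 3, and clone 1 was at -0.25 to -0.16. Gsta4, a glutathione transferase for lipid aldehydes, was at 112, 89.7, 67.3 and 85 CPM in clone 2 and at 36.9, 27.8, 26.2 and 27.9 CPM in clone 3. The log2 difference was 1.54 (edgeR adjusted p = 1.52e-13, SE 0.12), and wild type was at 99.3 CPM, on the side of clone 2. Mgst1, a membrane-bound glutathione transferase, was at 41.8 ± 3.90 CPM (SD, n = 4) against 18.8 ± 0.883 (SD, n = 4). The factor itself, Nfe2l2, was higher by 0.31. Catalase (Cat), which breaks down hydrogen peroxide, was lower (-0.63), and the standard targets Gclm (-0.16), Gclc (-0.10) and Srxn1 (0.01) did not pass the test.

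Glycolysis and hypoxia genes had 12 of 30 members higher (40%) and 1 lower (3.33%), beside 13.8% and 10.9% of all genes, with a median of 0.15. Relative to wild type, the library medians were 0.10 to 0.26 in clone 2 and -0.03 to 0.10 in clone 3, with an overlap. Clone 1 was highest, at 0.26 to 0.33. Hexokinase Hk1 (0.66), the enolase Eno2 (1.17), the growth factor Vegfa (0.28) and Ndrg1 (0.57), a hypoxia-induced gene in the chromosome 15 block, were higher. Kdm3a was lower (-0.16). Sterol and fatty acid genes had 9 of 33 members lower (27.3%) and 3 higher (9.09%), with a median of -0.06 that became 0.02 without clone 3 replicate 2. Msmo1 (-0.43) and Cyp51 (-0.39) of sterol synthesis were lower, whereas Hmgcs1 (0.12), an early enzyme of the pathway, did not pass the test. The desaturases Fads2 (-0.57) and Fads1 (-0.34) were lower although chromosome 19, where they lie, had a median of 0.17.

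**Figure D4:**
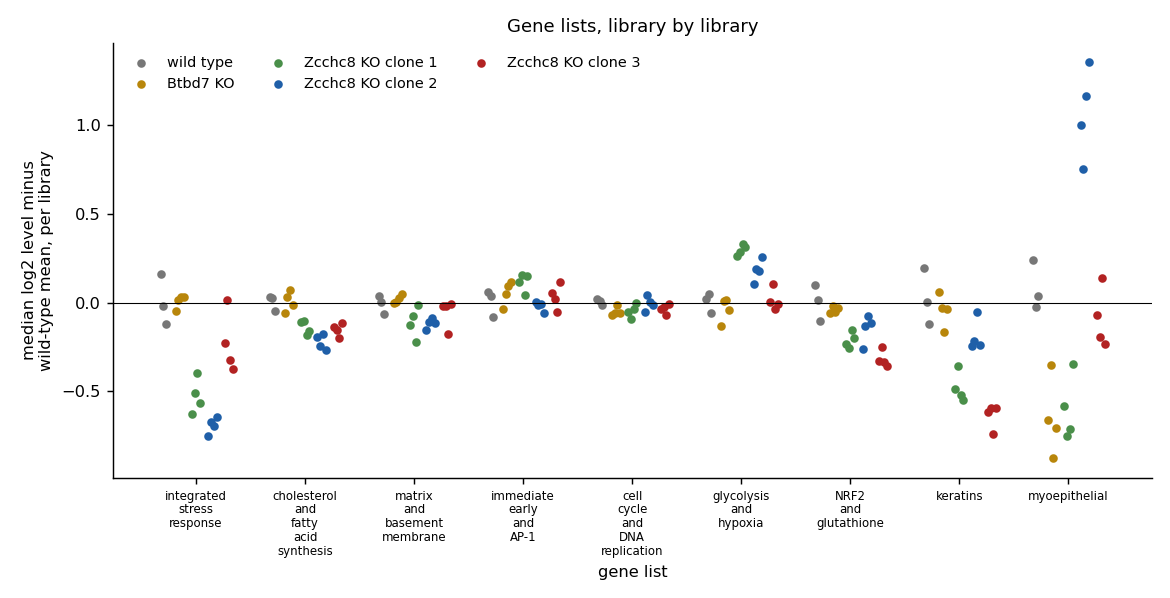
Median over the tested members of 9 gene lists, per library, as log2 level minus the wild-type mean, with 1 point a library. Integrated stress response genes are lowest in clone 2 (-0.75 to -0.65), and the myoepithelial list of 4 tested genes is highest there. The summed level of all 10 myoepithelial markers, not drawn, was higher in Btbd7 KO than in clone 2.

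Matrix genes differed in both directions. Of 31 tested genes of the matrix and basement membrane 15 were lower (48.4%) and 9 higher (29.0%) in clone 2, beside 10.9% and 13.8% of all genes, with a median of -0.13. Fn1, fibronectin, was the most abundant, at 2593, 2359, 2996 and 2672 CPM in clone 2 and at 5056, 5114, 4663 and 5365 CPM in clone 3. The log2 difference was -0.93 (edgeR adjusted p = 1.19e-17, SE 0.05), and clone 2 was near wild type (2945 CPM). The perlecan and agrin genes Hspg2 (-0.23) and Agrn (-0.59) and the collagen IV genes Col4a1 (-0.41) and Col4a2 (-0.26) were lower, by much less than Col4a3 and Col4a4. Lama3, a chain of the laminin under epithelia, was higher, at 316 ± 18.4 CPM (SD, n = 4) against 178 ± 7.65 (SD, n = 4), while the chain gene Lamb3 was higher by 0.15. Col18a1 (1.10) and the proteoglycan gene Sdc1 (0.68) were higher.

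Of 17 tested integrins, receptors for this matrix, 4 were higher and 4 lower (23.5% each, beside 13.8% and 10.9% of all genes). Itga2, a collagen receptor subunit on chromosome 13, was at 70.3, 88.2, 82.7 and 89.3 CPM in clone 2 and at 19.9, 22, 21 and 23.9 CPM in clone 3 (1.93, edgeR adjusted p = 5.72e-19). Its difference was well above its block's median of 0.24. Itga6 (0.63) and Itgb4 (0.31), which pair as the laminin receptor of hemidesmosomes, were both higher. Itgb6, of the fibronectin and TGF-beta binding integrin, was lower at 48.4 ± 1.31 CPM (SD, n = 4) against 89.7 ± 7.13 (SD, n = 4), and Itgb1 (-0.26), Itgav (-0.16) and Itgb5 (-0.24) were lower as well.

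Junction genes differed in both directions. Of 28 genes of epithelial junctions and identity 7 were higher (25%) and 6 lower (21.4%), beside 13.8% and 10.9% of all genes. Cdh1, E-cadherin, was at 361, 324, 361 and 357 CPM in clone 2 and at 467, 473, 416 and 459 CPM in clone 3 (-0.37, edgeR adjusted p = 2.85e-07). The claudins Cldn6 (-0.47) and Cldn7 (-0.40) and the splicing regulator Esrp2 (-0.30) were lower. Dsp (0.57) and Jup (0.43), plaque proteins of desmosomes, were higher and lie in the blocks of chromosomes 13 and 11, with medians of 0.24 and 0.35. Elf3, an epithelial transcription factor outside the blocks, was higher by 0.71.

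Keratins, the intermediate filaments of epithelia, were higher in clone 2 than in clone 3 where they differed. Relative to wild type, the library medians of the keratin list were -0.24 to -0.05 in clone 2, -0.74 to -0.59 in clone 3 and -0.55 to -0.36 in clone 1. Clone 3 thus lay further below the wild-type mean than clone 2. The list, built on name prefixes, held 15 tested genes, of which 8 were higher (53.3%, beside 13.8% of all genes) and 0 lower, but 12 of the 15 lie in the blocks of chromosomes 11 and 15. Krt19 was at 337, 331, 380 and 347 CPM in clone 2 and at 162, 169, 131 and 151 CPM in clone 3 (1.18, edgeR adjusted p = 5.78e-17). Krt8 was at 704 ± 65.3 CPM (SD, n = 4) against 517 ± 32.0 (SD, n = 4), while its partner Krt18, at 706 and 683 CPM, did not pass the test (0.05). The block medians were 0.35 and 0.26, and the part of the chromosome in these differences was not tested. Of the 3 tested genes outside the blocks only Krt8-ps, a pseudogene that can share reads with Krt8, was called.

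Some basal and mesenchymal markers differed. Of 4 tested myoepithelial markers 3 were higher and 0 lower, and of 12 mesenchymal ones 4 were higher and 4 lower (33.3% each), beside 13.8% and 10.9% of all genes. Trp63, the transcription factor of basal and myoepithelial cells, was at 23.2, 20.5, 20.4 and 19.5 CPM in clone 2 and at 4.24, 3.16, 5.11 and 3.45 CPM in clone 3, with 2.79 CPM in wild type (2.39, edgeR adjusted p = 2.59e-10). Mylk, myosin light chain kinase, was at 17.1, 11.8, 16.3 and 10.9 CPM against 1.20, 2.65, 2.81 and 2.10 CPM. Both were highest in clone 2. The contractile marker Acta2, however, had 0 counts in clone 2 and 1 in clone 3. The summed level of the 10 myoepithelial markers was 291 to 366 CPM in clone 2 and 198 to 230 CPM in clone 3. Most of it was Krt14. In wild type the sum was 294 to 401 CPM and in Btbd7 KO 400 to 423 CPM. Clone 2 thus did not exceed these controls over the whole list. Zeb1, a repressor of E-cadherin, was higher in clone 2 (17.9 ± 1.54 against 5.06 ± 1.69 CPM, SD, n = 4), as was Zeb2 (0.82), while Snai2 had 1 count in clone 2 and 12 in clone 3. Cdh2, N-cadherin, had 0 counts in both. Fn1, also on the mesenchymal list, was lower in clone 2. The summed level of the 23 mesenchymal markers, most of it Fn1, was 3175 to 3824 CPM in clone 2. It was 5556 to 6276 CPM in clone 3 and 3895 to 4043 CPM in wild type, so the list had no single direction.

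Markers of other cell types also differed in places, and their part in the other results was not tested. Cd68, a lysosomal protein of macrophages that other cells also make, was at 9.39 ± 0.719 CPM (SD, n = 4) in clone 2 and 5.53 ± 1.06 (SD, n = 4) in clone 3. Csf1r, the receptor for a macrophage growth factor, had 214 counts in clone 2 and 125 in clone 3, and Ptprc, a leukocyte phosphatase, had 30 and 5. The macrophage and leukocyte genes Adgre1 and Tyrobp had 0 counts in both. The summed immune list was at 12.2 to 15.9 CPM in clone 2 and 6.76 to 10.2 CPM in clone 3, and that of fibroblast markers at 24.6 to 28.6 and 22.1 to 26.3 CPM. Among neural and glial genes Map2 (-0.62) and Mbp (-0.44, in the chromosome 18 block) were lower in clone 2, and the neuronal genes Snap25 and Tubb3 had 0 counts.

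Signalling genes held some of the clearest single differences. In the EGF and TGF-beta families 14 of 36 genes were higher (38.9%) and 8 lower (22.2%) in clone 2, beside 13.8% and 10.9% of all genes. The median log2 fold change of the list was -0.025, beside -0.003 over all genes, and its library medians overlapped between the clones. The EGF-family ligands Areg (0.92), Nrg1 (0.91), Btc (0.66) and Tgfa (0.46) and the receptors Egfr (0.40) and Erbb2 (0.45) were all higher, the last in the chromosome 11 block. The receptors Tgfbr1 (0.37) and Tgfbr2 (0.53) and the ligand Tgfb1 (1.17) were higher, whereas the inhibitor Smad7 (-1.37) and the responsive genes Id2 (-0.36) and Id3 (-0.51) were lower. Smad7 was at 28.0, 30.2, 20.7 and 25.5 CPM against 66.0, 60.2, 64.7 and 74.8 CPM, in a block whose median was -0.51.

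In the Wnt and Notch pathways 12 of 33 genes were higher (36.4%) and 5 lower (15.2%), beside the same background, with a median of -0.013. The ligands Wnt4 (22.5, 24, 23.6 and 19.8 CPM against 8.27, 7.45, 4.99 and 6.29 CPM) and Wnt5a (0.99) were higher, as were the feedback inhibitors Notum (2.08) and Rnf43 (0.56) and the factor Tcf7 (1.11). These were all taken from the higher members, and the 5 lower ones are not named here. Wild type, at 23.4 CPM of Wnt4, was on the side of clone 2. Of 15 genes of FGF signalling 4 were higher and 4 lower (26.7% each). Fgfr1, a receptor for fibroblast growth factors, was at 42.2, 35.2, 49.7 and 39.9 CPM in clone 2 and at 9.05, 9.47, 8.06 and 11.8 CPM in clone 3 (2.10, edgeR adjusted p = 5.66e-15). Wild type, at 13.3 CPM, was nearer to clone 3. Spry2 (-0.53) and Dusp6 (-0.39), feedback inhibitors induced by this receptor class, were lower.

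The matricellular genes Ccn1 and Ccn2, standard targets of the YAP coactivator, were both lower in clone 2. Ccn1 was at 64.4, 63.1, 76.7 and 69.4 CPM in clone 2 and at 222, 237, 216 and 252 CPM in clone 3, beside 235 CPM in wild type (-1.76, edgeR adjusted p = 5.97e-20). Ccn2 was at 69.8, 68.8, 77.3 and 66.6 CPM against 166, 219, 134 and 154 CPM, beside 154 CPM in wild type (-1.25). Clone 2 was thus the one of the pair away from wild type for both, and clone 1 (135 and 131 CPM) lay between. They belong to a list of 30 immediate early and AP-1 genes with 7 higher (23.3%) and 9 lower (30%), beside 13.8% and 10.9% of all genes. Within it Junb (-0.32) and Ier2 (-0.34) were lower, Klf6 (0.38) and Ier5 (0.77) higher, and Egr1 (-0.22), Jun (0.18) and Myc (-0.01) did not pass the test.

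The cell cycle, interferon and p53 lists were called at rates near that of all genes (24.7%), so their counts are no result about the lists. Of 53 cell cycle and replication genes 8 were higher and 6 lower, which is 26.4% called and close to the background. Ccnd1 (-0.30) and Ccnd2 (-0.52), D-type cyclins, and their kinase Cdk4 (-0.27) were lower, and Top2a (0.61), Cdc6 (0.40) and Ccnb1 (0.28), all in blocks, were higher. Of 37 interferon response genes 6 were higher and 2 lower (21.6% called). Tlr3, a receptor for double-stranded RNA, was at 171, 182, 145 and 167 CPM in clone 2 and at 270, 266, 271 and 293 CPM in clone 3 (-0.73), and Samd9l was lower (-0.66), while Ddx58 (0.38), the RNA sensor RIG-I, and Irf1 (0.43) were higher. Of 31 p53 pathway genes 3 were higher and 5 lower (25.8% called), with Trp53 at -0.24 and the main target Cdkn1a (-0.04) not called.

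Of 60 histone genes 11 were higher and 3 lower (23.3% called, beside 24.7% of all genes). The lower ones, Hist2h2ab (-0.73), Hist2h3b (-0.65) and Hist2h4 (-0.56), lie in the chromosome 3 block, and 8 of the higher ones in the chromosome 13 block. Of 331 zinc finger genes with Zfp names 33 were higher and 30 lower (19% called). Of 12 imprinted genes 5 were higher and 1 lower (50% called), with Mest (1.04) higher and Plagl1 (-0.68) lower. Of 47 snoRNA genes 1 was higher and 1 lower, and of 13 snoRNA host genes 2 were higher and 1 lower. Snhg15, a host gene at 19.7 CPM in wild type, was at 48.7 ± 2.53 CPM (SD, n = 4) in clone 2 and 70.5 ± 3.59 (SD, n = 4) in clone 3 (-0.54). Of the mitochondrially encoded genes mt-Cytb (-0.22), mt-Nd4 (-0.23) and mt-Nd5 (-0.24) were lower and mt-Nd6 (0.51) higher, of 15 tested. All 4 calls were lost in the 20-library table, and DESeq2 gave adjusted p = 0.224 for mt-Nd4, 0.0736 for mt-Nd5 and 0.136 for mt-Nd6. None of 17 clustered protocadherins was called.

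PROMPT regions were called less often than genes. They rest on fewer counts, and in simulated counts the test recovered 52.2% of PROMPT changes of 1 on the log2 scale, against 88.1% for genes. The part of depth in the lower share was not tested. Of 17646 tested regions 382 (2.16%) were higher and 400 (2.27%) lower in clone 2 (edgeR, adjusted p under 0.05), which is 4.43% called, and for 11.4% the 4 and 4 libraries did not overlap. An absolute log2 fold change over 1 was also passed by 284 regions (1.61%). Scaling within the PROMPT table in place of the gene table gave 454 higher and 318 lower, which is 58.8% higher in place of 48.8%, so the balance of directions depends on the scaling. How far a region reaches from its promoter is not given in the sources used here, and 13243 of the tested regions have an annotated gene within 5 kb upstream.

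Regions with the largest differences mostly carried such a neighbour. The region of Gm17501 was at 63.0, 61.7, 75.6 and 67.9 CPM in clone 2 and at 218, 232, 211 and 248 CPM in clone 3, nearly the values of the neighbouring gene Ccn1. The region of the small RNA gene Gm27820 has Hhip as its neighbour, and was at 92.9, 95.2, 76.2 and 83.4 CPM against 10.5, 9.47, 11.6 and 12 CPM. That of Col4a4, at 0.720 ± 0.319 CPM (SD, n = 4) against 7.75 ± 1.68 (SD, n = 4), has Col4a3 as its neighbour. Such regions cannot be told apart from the neighbouring gene. The region of Foxl1 (2.60) has Gm20388 as neighbour, and those of 4932441J04Rik (2.78) and Gm42635 (2.76) have Pcdh7. The region of Gm6366, with no annotated neighbour, was lower by 2.20 on the log2 scale.

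Over the 4344 regions with no annotated gene within 5 kb upstream, 54 were higher and 80 lower (3.08%). The regions below were picked from them after their values were seen, for protein-coding genes with large differences in both directions. The Sema4b region was at 6.53, 7.97, 5.87 and 9.78 CPM in clone 2 and at 3.25, 2.02, 3.07 and 2.57 CPM in clone 3, and at a mean of 0.480 CPM in wild type (log2 fold change 1.46, SE 0.28, edgeR adjusted p = 0.000242). Both clones were above wild type, and clone 2 was above clone 3. The gene Sema4b, a semaphorin, was at 57.0 ± 6.83 CPM (SD, n = 4) against 36.6 ± 4.11 (SD, n = 4), a log2 fold change of 0.62.

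The region of Hmga2, an architectural chromatin protein, was at 7.08, 8.25, 8.75 and 7.98 CPM against 2.83, 2.90, 2.69 and 4.53 CPM, with 1.35 CPM in wild type (1.29). Its gene differed by 0.66. The region of Cldn2, a pore-forming claudin in the X chromosome block, was at 8.89, 9.04, 9.61 and 10.4 CPM against 3.25, 3.03, 5.24 and 3.92 CPM, with 0.256 CPM in wild type (1.31), and its gene differed by 1.22. Clone 2 was the higher clone for both regions, without overlap. DESeq2 did not call the Cldn2 region (adjusted p = 0.0622). The region of Tslp, an epithelial cytokine, was at 19.2, 19, 16.5 and 17.2 CPM against 5.37, 6.69, 5.75 and 6.63 CPM, and its gene was at 171 ± 15.5 against 77.3 ± 4.62 CPM (SD, n = 4).

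In the other direction, the Fam71f1 region was at 2.92, 3.09, 2.65 and 2.64 CPM in clone 2 and at 5.59, 6.82, 7.54 and 5.68 CPM in clone 3, with 1.03 CPM in wild type (-1.17, edgeR adjusted p = 0.00331). The gene Fam71f1 was lower as well (-1.47). The Tlr3 region was at 2.50, 2.73, 1.96 and 1.94 CPM against 7.07, 6.44, 6.65 and 5.61 CPM, with 1.20 CPM in wild type (-1.51), beside the lower Tlr3 gene. Clone 3 was higher in every library for both regions.

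The sequences just upstream of 4 of these genes are shown because their PROMPT regions lie upstream of these promoters and differ between the clones, with no annotated neighbour. Each is the 250 bases before the RefSeq start (GRCm38.p6), on the strand of the gene, with CG dinucleotides in capitals. They are chr7:80186620-80186869 (plus) for Sema4b, chrX:139800558-139800807 (plus) for Cldn2, chr10:120476470-120476719 (minus) for Hmga2 and chr6:29318890-29319139 (plus) for Fam71f1. For Sema4b the GENCODE gene starts 29 bases before the RefSeq start, so the last 29 bases shown lie inside the annotated gene. For Cldn2 it starts 20 bases after the RefSeq start, and for Hmga2 and Fam71f1 the starts are the same.
Sema4b: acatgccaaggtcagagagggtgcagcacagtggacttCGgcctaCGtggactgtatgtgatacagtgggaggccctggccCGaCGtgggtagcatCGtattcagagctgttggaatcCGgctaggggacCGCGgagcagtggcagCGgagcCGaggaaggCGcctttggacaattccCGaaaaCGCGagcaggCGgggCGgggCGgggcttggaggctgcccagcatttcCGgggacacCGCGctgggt
Cldn2: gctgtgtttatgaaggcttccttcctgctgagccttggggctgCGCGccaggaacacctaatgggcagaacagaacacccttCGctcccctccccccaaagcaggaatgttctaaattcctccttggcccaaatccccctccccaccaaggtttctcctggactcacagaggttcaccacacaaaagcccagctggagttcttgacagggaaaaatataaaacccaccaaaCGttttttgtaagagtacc
Hmga2: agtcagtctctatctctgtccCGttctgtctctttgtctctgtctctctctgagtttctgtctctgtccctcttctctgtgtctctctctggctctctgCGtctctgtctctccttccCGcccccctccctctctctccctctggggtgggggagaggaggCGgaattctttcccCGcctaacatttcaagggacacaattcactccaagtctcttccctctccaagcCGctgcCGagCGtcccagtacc
Fam71f1: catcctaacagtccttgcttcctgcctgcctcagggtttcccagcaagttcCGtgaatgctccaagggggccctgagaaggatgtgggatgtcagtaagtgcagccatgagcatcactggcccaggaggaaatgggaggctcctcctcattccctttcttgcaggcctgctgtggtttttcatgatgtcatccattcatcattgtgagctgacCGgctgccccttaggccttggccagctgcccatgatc

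These windows did not share one base composition. The CG dinucleotide (both strands at once, as it is its own reverse complement) occurred 20 times upstream of Sema4b, 8 times for Hmga2, 4 times for Cldn2 and 2 times for Fam71f1, against a median of 6 over 32851 RefSeq promoter windows of the same length. Of all windows 17.9% held at least as many as Sema4b and 81.2% at least as many as Fam71f1.

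PROMPT regions and their own genes mostly differed together where both were called. Of 220 regions higher in clone 2 with a tested gene, 100 had a higher gene, 5 a lower one and 115 one that was not called. Of 251 lower regions, 101 had a lower gene, 1 a higher one and 149 one that was not called. Over all 11535 regions with a tested gene, 1429 genes were higher and 1222 lower. A region can also catch reads of its own gene if the counted window overlaps it, which was not tested.

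The overall level of PROMPT RNA relative to gene RNA differed little. Per library, the median log2 ratio of PROMPT to gene counts over 11535 features was -2.30, -2.30, -2.32 and -2.32 in clone 2 and -2.24, -2.30, -2.19 and -2.24 in clone 3. The groups overlapped in 1 library of clone 3. The means were -2.31 ± 0.01 (SD, n = 4) and -2.24 ± 0.05 (SD, n = 4), and their difference of -0.07 did not pass a two-sided exact permutation test (p = 0.0857, where the smallest possible is 0.0286). Both clones lay far from wild type, at -3.28 ± 0.02 (SD, n = 3), and from Btbd7 KO, at -3.26 ± 0.03 (SD, n = 4). With a pseudocount of 1 in place of 0.5 the difference was -0.075 and reached p = 0.0286 in the same exact permutation test. It was smaller over protein-coding genes alone, at -0.040 (exact permutation p = 0.171), and over regions with no annotated gene upstream, at -0.038 (exact permutation p = 0.286). Its size and its call therefore depend on these settings. Clone 2, the line with less Zcchc8 RNA (23.5 against 54.5 CPM), thus had a mean ratio 0.07 below that of clone 3.

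**Figure D5:**
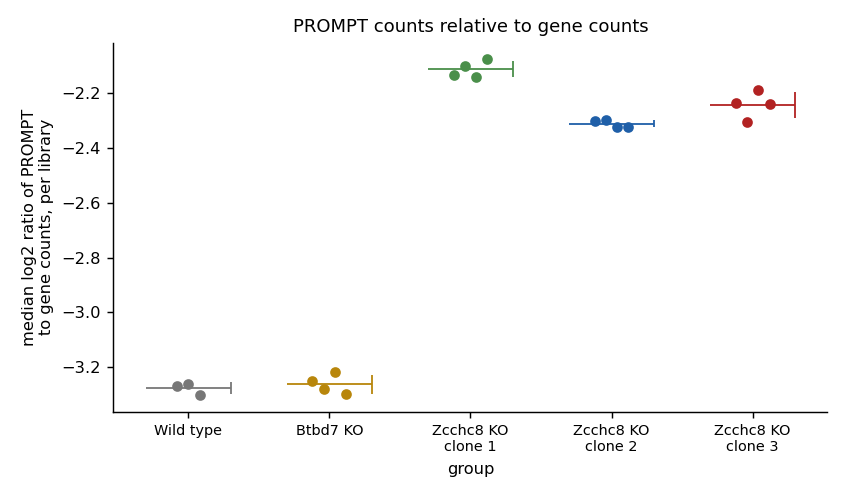
Median log2 ratio of PROMPT to gene counts per library (points) by group, with the mean (horizontal line) and SD (vertical line). Over these 11535 features clones 2 and 3, at -2.31 and -2.24, are both about 1 log2 unit above wild type at -3.28. The size of this gap depends on the features taken. The means were -3.54 and -3.50 against -5.23 over protein-coding genes alone. They were -4.50 and -4.46 against -6.99 over regions with no annotated gene within 5 kb upstream.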

How the data were processed

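The authors deposited raw counts, as whole numbers of reads per feature and library, in 9 tables. The gene table of 19 libraries (without wild-type replicate 1) and the PROMPT table of the same libraries were used, with the 20-library gene table as an alternative. FastQC and STAR 2.7.3a are named in the submitters' processing notes. Which tool counted the reads, with what strand setting, on which build and over what extent of a PROMPT region is not given in the sources used here. Per the labels' protocols, RNA came from TRIzol and columns and libraries from Illumina's stranded total RNA kit. Groups came from the labels. Of 55471 gene identifiers 55230 matched GENCODE M21 (GRCm38) without the version and 54573 with it.

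Counts were tested with edgeR 4.0.16 (glmQLFit, glmQLFTest; R 4.3.3) in 1 fit over all 5 groups per table, after filterByExpr, with clone 2 minus clone 3 as the contrast and Benjamini-Hochberg adjusted p under 0.05 as the call. Library sizes and TMM factors came from the gene table for both tables. The ratio of PROMPT to gene counts used a pseudocount of 0.5 and an exact permutation test (scipy 1.17.1). The named genes were Zcchc8, Btbd7, Rbm7 and Mtrex, then called features whose libraries did not overlap and averaged 50 counts or more. These were the 10 lowest and 10 highest protein-coding genes, 4 and 4 of other biotypes and 5 and 5 PROMPT regions. From each of 36 gene lists came up to 4 called members of lowest adjusted p that averaged 50 counts or more. Overlap of libraries was not a criterion for these list members. The features Atf4, Atf5, Mthfd2, Tslp, Cldn2, Hmga2, Sema4b, Fam71f1 and others beyond this rule were added after their values were seen. Some list members are not reported here. The comparison and the lists were chosen with earlier results of these data known. Some lists are built on name prefixes, and the ribosomal one (150 tested, 12 higher, 14 lower) also holds S6 kinases and pseudogenes.

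Counts were also simulated from the spread that edgeR had fitted, with changes placed in a few features above a minimum count. Of 67, 67 and 66 genes changed by 0.5, 1 and 2 on the log2 scale, the test recovered 68.7%, 88.1% and 100%. Over all 15275 genes 3.93% of calls were false. Of as many PROMPT regions it recovered 17.9%, 52.2% and 95.5%, and 6.78% of calls were false over 17192. These rates hold for that setting only, as the data had a far larger share of genes called (24.7%). Pairs of libraries of a clone had a chi-square of 3.00 to 7.96 for each degree of freedom, above sampling noise, and each library was kept as 1 sample. Alternatives were DESeq2 1.42.0, other scaling and filters, subsets of libraries, the replicate number as a block, and features outside the chromosome blocks.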

Additional observations from a re-analysis of the deposited data

Results flagged for a closer look

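In groups of 4 libraries, a value was marked when its gap to the nearest other library took up most of the group's range (Dixon's test at 95%). Of 324 groups examined 26 had such a value, and chance marks about 1 in 20 groups.

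In clone 2, replicate 1 stood apart for Kcnq1 (12.9 CPM against 15.6 to 16.2 in the other libraries of the clone), Tgfbr2 (351 against 304 to 312), Snhg15 (52.5 against 47.2 to 47.6), the Gm42635 PROMPT region (12.4 against 6.94 to 7.82) and mt-Nd6. The mitochondrial gene mt-Nd6 was at 86.4 CPM there and at 149 to 160 CPM in the other libraries, so its higher call in clone 2 rests on libraries that differ among themselves. Replicate 2 of clone 2 was low for Cdh1 (324 against 357 to 361 CPM) and Ier5 (20.2 against 22.7 to 23.2 CPM). Replicate 3 was high for Col4a3 (4.43 against 1.94 to 2.01 CPM), a shift that is small beside the 93.2 CPM of the lowest library of clone 3, and for Krt8 (801 against 660 to 682 CPM). It was low for Gm18066 (1.38 against 2.22 to 2.36 CPM), Gm44275 (28.8 against 31.8 to 32.3 CPM) and Sparc (158 against 180 to 183 CPM). Replicate 4 was low for Hist1h3a (21.7 against 26.9 to 27.7 CPM).

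In clone 3, replicate 1 was high for Gsta4 (36.9 against 26.2 to 27.9 CPM). Replicate 2 was high for Klhl1 (26.5 against 20.8 to 21.6 CPM), Snhg20 (45.2 against 33.9 to 35.7 CPM) and the one-carbon enzyme gene Mthfd2 (61.0 against 37.1 to 39.8 CPM). It was also the library of clone 3 in which Atf4 and Asns were highest. Replicate 3 was low for Krt8 (470 against 531 to 536 CPM), Ndrg1 (162 against 188 to 192 CPM) and Cdk4 (357 against 370.4 to 372 CPM) and high for Samd9l (65.2 against 58.6 to 59.3 CPM). Replicate 4 was high for Tlr3 (293 against 266 to 271 CPM), Zfp750 (3.04 against 1.52 to 1.77 CPM) and the Hmga2 PROMPT region (4.53 against 2.69 to 2.90 CPM), and low for Plekhh2 (16.2 against 20.7 to 21.6 CPM). For the chromosome 1 block the median of replicate 3 was 0.18 relative to wild type, against 0.16 in the other libraries of clone 3.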

How the results depend on the processing

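No named feature changed sign under the alternatives run, but the balance of calls and some small list medians did. With an absolute log2 fold change above 1 also required there were 422 genes higher and 222 lower, and 146 PROMPT regions higher and 138 lower. Outside the chromosome blocks, an alternative added after the data were seen, 1122 genes were higher and 1430 lower, which turns the balance of the main counts, and 190 PROMPT regions were higher and 319 lower (37.3% higher, against 48.8%). DESeq2 called 504 PROMPT regions higher and 634 lower, and scaling within the PROMPT table gave 454 and 318. The ratio difference of -0.075 with a pseudocount of 1 passed its exact permutation test (p = 0.0286). It ranged from -0.0890 to -0.0505 when each library was left out. Leaving out a library gave 1819 to 1984 higher and 1467 to 1750 lower genes, and 261 to 299 higher and 271 to 384 lower PROMPT regions.

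Of 152 named features 136 kept their call in every alternative that gave a value. The other 16 lost it in at least 1, most often Snhg20 and Snora21 (11 alternatives each) and Calr and mt-Nd4 (9 each), followed by Zfc3h1 (6), H2-T23 (5), mt-Nd5 (4), and mt-Nd6 and Plk2 (3 each). Exosc2 lost it in 2. Sterol genes had 7 to 10 lower and 1 to 4 higher members, and their median changed from -0.06 to 0.02 without clone 3 replicate 2. Replicate numbers did not pair the libraries (correlations of deviations 0.18, 0.02, -0.20 and -0.07). With the replicate block 2144 genes were higher and 1707 lower, and 376 PROMPT regions were higher and 392 lower. PROMPT regions rest on fewer counts than genes (1591591 to 3966608 in clone 2). The causes of these changes were not tested.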
